A study of Rattus norvegicus with 12 samples.

Results

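The genes described here encode the pores and accessory subunits of the sodium, calcium, potassium and pacemaker channels of rat heart, and they were chosen by symbol (Scn, Cacna, Cacnb, Cacng, Hcn and Kcn genes). Of 34322 genes in the count tables, 137 carry such a symbol, and 78 of these reached a mean of 1 CPM (the usual scaling of a count to its library's total) over the 12 libraries. The other 59 lay under that level, and 5 of those had no count in any library. The symbols reach beyond channels opened by voltage. Of the 78 members, 11 are inward rectifiers (Kcnj), 4 are background or leak channels (Kcnk) and 6 are opened by intracellular calcium or sodium (Kcnn and Kcnt), so the set is called ion channel genes here. The members just above the level were Kcnk13 (1.06 CPM), Cacnb1 (1.12) and Scn8a (1.12), and the genes just under it were Cacng7 (0.927), Kcnc4 (0.909) and Kcnk5 (0.873).

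The hearts came from wild-type male SD (Sprague-Dawley) rats that received sorafenib, an oral inhibitor of RAF kinases and of VEGF and PDGF receptors used against cancer, at 50 mg/kg daily for 14 or 28 days. Control rats received deionized water for the same time. There were 3 libraries in each of 4 groups: water day 14, sorafenib day 14, water day 28 and sorafenib day 28. The labels give a body weight but no age, name the tissue only as heart with no chamber, and leave unsaid whether each library is a rat of its own. The p-values thus describe how far these libraries spread, which may be technical.

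Ion channels set the heartbeat's electrical signal. Sodium channels start the action potential of working heart muscle, L-type calcium channels hold its plateau and trigger contraction, and several potassium channels end it, while inward rectifiers and leak channels hold the resting potential. Pacemaker (HCN) and T-type calcium channels serve the spontaneously active cells of the conduction system, and accessory subunits bring the pores to the membrane and tune their gating.

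Total counts were 13746366 to 18534816 per library at day 14 and 16785038 to 26403196 at day 28, except for 1036483 in sorafenib day 28 replicate 3. In that library 1 count equals 0.965 CPM and 76 of the 78 members had a count. The members took 0.350 to 0.437% of all counts of a library. None of 10 heart muscle markers was at 0 in any group. Their mean log2 difference from the water libraries of the same day was -0.37 in sorafenib day 14 replicate 5 and -0.69 in sorafenib day 28 replicate 3, and -0.25 or higher in every other library. Exons of 18 members, among them Cacna1c, Kcnq1, Kcnd2, Kcnd3, Kcnk2 and Kcng2, overlap those of another gene, and since the counts use no strand, reads of such pairs cannot be told apart. Values below are CPM after TMM normalization of all libraries together, listed in order of replicate number, with SD over 3 libraries.

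Measured per kilobase of exon, the most abundant member was Kcnip2, the KChIP2 subunit that carries Kv4 channels of the transient outward current to the membrane, at 220 CPM per kb (136 to 311 over the 12 libraries). It alone made 27.5% of the summed per-kilobase level of all members and stood at the 98.8th percentile of the 15796 genes of 1 CPM or more. Cacna1c, the L-type calcium channel pore, stood at 48.3 CPM per kb. Kcnk3, the acid-sensitive leak channel TASK-1, stood at 36.0 and the sodium channel subunit Scn4b at 32.4. The lowest library of Kcnip2 lay above the highest of Cacna1c (59.4 CPM per kb), while the ranges of Cacna1c, Kcnk3 and Scn4b overlapped. The 10 highest members, among them also Kcnj11, Hcn2, Cacna2d1 and Kcng2, made 71.0% of the summed level. The median member lay at 1.77 CPM per kb, against 5.39 over all genes of 1 CPM or more, and was longer, at 5.27 kb of exon against 3.40.

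**Figure D1:**
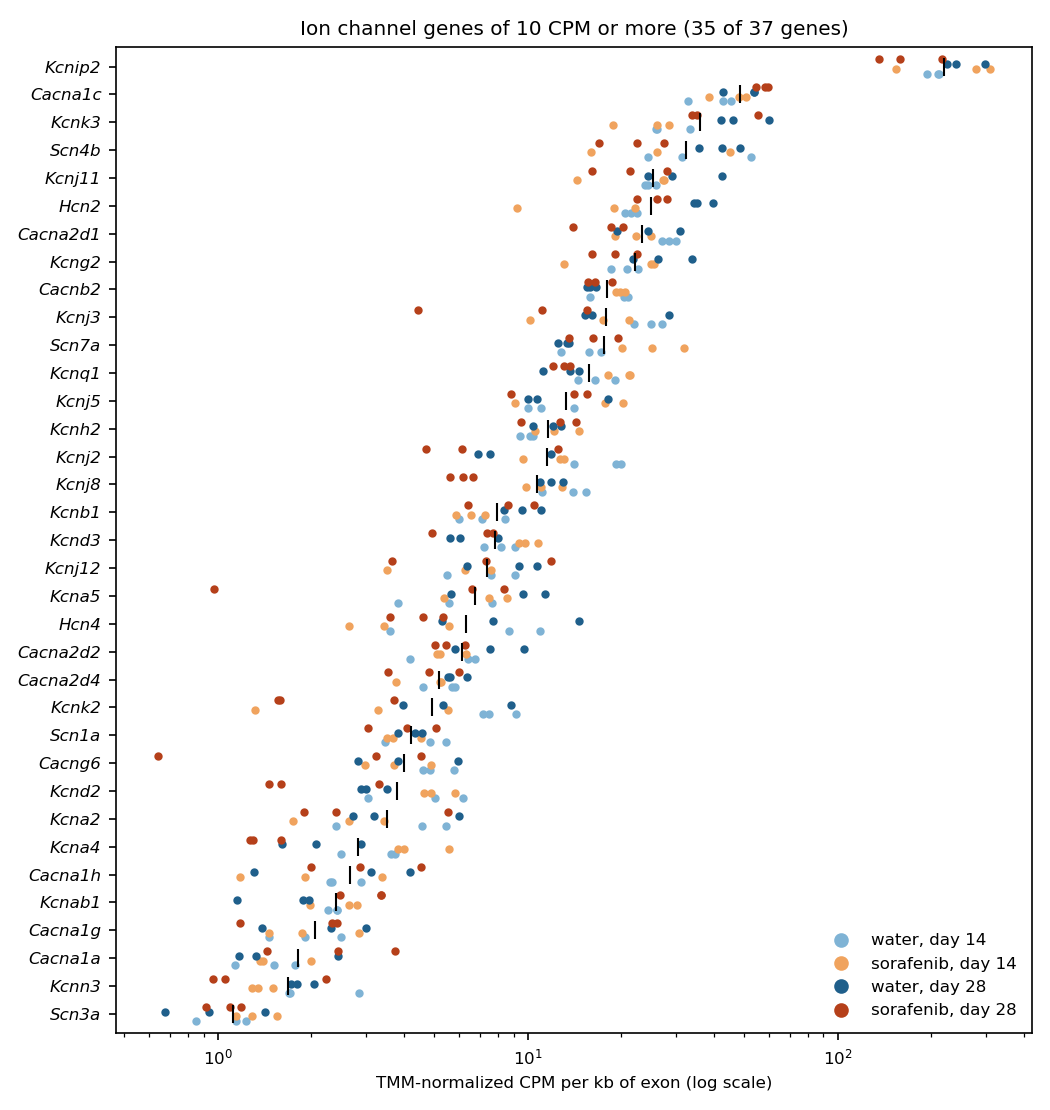
Levels of 35 of the 37 members with a mean of 10 CPM or more, ordered by mean level. Each point is 1 library, coloured by group, on a log axis of normalized CPM per kb of exon, and the vertical tick is the mean of the 12 libraries. Kcnip2 stands highest at 220 CPM per kb, and the 4 groups overlap for most of the genes.

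Within families, a single gene often held most of the level in every group. Cacna1c made 82.1 to 93.1% of the calcium pore members' per-kilobase level in the 12 libraries, and Cacnb2, the cytosolic beta subunit of cardiac L-type channels, 87.0 to 95.1% of the beta members'. Kcnip2 made 99.5 to 99.9% of the Kcnip members' level. Of the HCN genes, Hcn2 and Hcn4 were members, and Hcn4, the main pore of the sinus node, made 12.1 to 32.8% of their sum. Kcne1, the accessory subunit of the slow delayed rectifier, stayed under the level of membership at 0.328 CPM, as did Kcnma1 (0.775) and Kcne5 (0.0455).

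The first question was what sorafenib did to these genes after 14 days. All 78 members passed the low-count filter and were tested, and none passed the edgeR test at an adjusted p under 0.05, and of all 17406 genes tested 0% did. The smallest adjusted p of a member was 0.168. With no adjustment 11 members (14.1%) were under the threshold of 0.05 against 14% of all genes. DESeq2 gave 66 members an adjusted p and called 2 (3.03%), Scn7a and Kcnk2, against 2.98% of all genes. The median member's log2 fold change was 0.00, as over all genes, with 39 members above and 39 below 0. In 12 members (15.4%) the sorafenib and water libraries did not overlap, against 21.1% of all genes.

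The members of smallest p at day 14 were Scn7a, Kcnj2, Kcnj15 and Kcnk2. Kcnj2, the Kir2.1 pore that sets the resting potential of ventricular muscle, stood at 110, 106 and 77.8 CPM in water hearts and 53.2, 70.3 and 72.1 in sorafenib hearts at day 14. Each sorafenib library was below each water library, with a log2 fold change of -0.59 ± 0.17 (SE) and an edgeR adjusted p of 0.200. Kcnj15, the inward rectifier Kir4.2, stood at 3.86, 4.83 and 3.25 against 1.92, 1.26 and 2.54 CPM, with no overlap and an adjusted p of 0.217. Genes of repolarization lay the other way, without passing the test. Kcnh2, the pore of the rapid delayed rectifier, gave 50.9, 49.8 and 46.4 CPM in water hearts and 51.7, 71.6 and 59.8 in sorafenib hearts, with no overlap and an adjusted p of 0.348. Kcnd3, a Kv4 pore, stood at 55.8 ± 6.47 against 68.1 ± 5.07 CPM (adjusted p = 0.368), and Kcnq1, the pore of the slow delayed rectifier, at 186 ± 25.6 against 224 ± 20.1 (adjusted p = 0.448). Of the 20 voltage-gated potassium pores, 14 had a log2 fold change above 0, with a family median of 0.28.

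At day 28 again none of the 78 members passed edgeR, against 0% of 17021 genes. The smallest adjusted p was 0.137, for Kcnj8. With no adjustment 17 members (21.8%) were under the threshold of 0.05, of them 11 lower, against 14.9% of all genes. DESeq2 called 2 (2.56%), Kcnj8 and Scn4b, against 1.74% of all genes. The median log2 fold change was -0.16 for members and 0.00 for all genes. Libraries of the groups did not overlap in 16 members (20.5%) against 22% of all genes.

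Scn4b, a beta subunit that shapes resurgent sodium current, had the second smallest p at day 28. It stood at 204, 172 and 233 CPM in water hearts and 109, 81.9 and 133 in sorafenib hearts. All sorafenib libraries were below all water libraries, with a log2 fold change of -0.86 ± 0.20 and an edgeR adjusted p of 0.152. Kcnip2 was at 655, 611 and 812 CPM in water hearts and 433, 369 and 590 in sorafenib hearts at day 28. Its groups did not overlap, and the adjusted p was 0.304. Hcn2 stood at 145, 142 and 164 against 93.4, 108 and 117 CPM, again without overlap (adjusted p = 0.249). Cacna1c lay on the other side, at 351, 445 and 444 CPM in water hearts and 491, 451 and 480 in sorafenib hearts, an adjusted p of 0.534 with no overlap.

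The effect was then averaged over both days in a fit of all 12 libraries with equal weight per day, an average already known from earlier results of these data to make calls where single days make none. It called 4 of 78 members (5.13%) against 4.41% of all 18174 genes tested, so the share of called members was near that of all genes. Kcnj8, Kcnk2 and Kcnt2 fell and Scn7a rose, where 2.41% of all genes fell and 2% rose. With no adjustment 24.4% of members and 24.3% of genes were under the threshold of 0.05. The median log2 fold change was -0.11 for the members and -0.01 for all genes, and 57.7% of members against 50.8% of genes were below 0. DESeq2 called 8 (10.3%), these 4 with Kcnj3, Cacna2d1, Hcn4 and Kcnj15, against 10.7% of all genes.

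Kcnj8 encodes Kir6.1, the pore of the ATP-sensitive potassium channel of vascular muscle and pericytes (chromosome 4, 175508908 to 175515829, minus strand, of mRatBN7.2). It stood at 36.9, 40.7 and 29.3 CPM in water hearts and 29.0, 26.1 and 34.0 in sorafenib hearts at day 14, and at 34.4, 28.9 and 31.4 against 14.8, 17.5 and 16.3 at day 28. The groups overlapped at day 14, while at day 28 every sorafenib library was well under every water library. The averaged log2 fold change was -0.63 ± 0.12 with an edgeR adjusted p of 0.0185. The difference between the days, -0.73 ± 0.23, did not pass (adjusted p = 0.999, unadjusted p = 0.00729). Leaving out each library in turn gave adjusted p of 0.0172 to 0.0671, and the call ended when water day 14 replicate 3 (0.0549) or sorafenib day 28 replicate 2 (0.0671) was absent.

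In whole tissue, fewer cells of a type and less RNA per cell cannot be told apart. None of 7 pericyte markers passed the averaged test and none was at 0 throughout a group. Their summed level was 841 to 1006 CPM with water and 922 to 942 with sorafenib at day 14, and 912 to 960 against 656 to 840 at day 28. Each marker was then weighted equally. Their mean log2 difference from the water mean of the same day was -0.61, -1.02 and -0.71 in the sorafenib libraries of day 28. This mean was thus lower in the same 3 libraries as Kcnj8, though not every marker was. In sorafenib day 28 replicate 3, Notch3 (160 CPM) and Pdgfrb (143) stood above their water means of 110 and 126. Ndufa4l2 had no count in that library, and Rgs5, Higd1b, Cspg4 and Abcc9 were below their water means. At day 14 the mean log2 difference was 0.03, -0.34 and -0.06. By the same measure 7 smooth muscle markers gave 0.895, 0.48 and 0.45 in the sorafenib libraries of day 14. At day 28 they gave 0.13, 0.46 and -0.54. Lower values were not limited to pericyte markers, as 7 fibroblast markers gave -0.78, -0.22 and -0.60 with sorafenib at day 28. The part of these lists in the Kcnj8 result was not tested. Abcc9, which encodes the SUR2 subunit of ATP-sensitive potassium channels, is among the pericyte markers and held the largest part of their summed level. It stood at 530 ± 49.7 CPM with water and 529 ± 40.7 with sorafenib at day 14. At day 28 it was at 461 ± 19.3 against 365 ± 30.8 (edgeR adjusted p in the average 0.363). Kcnj11, the Kir6.2 pore of heart muscle's own ATP-sensitive channel, stood at 87.2 ± 3.61 against 81.1 ± 26.3 CPM at day 14 and 112 ± 32.7 against 77.0 ± 21.3 at day 28, and did not pass (adjusted p in the average 0.307).

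Kcnk2 encodes TREK-1, a leak channel opened by stretch and lipids (chromosome 13, 100766101 to 100963435, minus strand). It stood at 27.5, 33.7 and 26.4 CPM in water hearts and 4.86, 20.3 and 12.1 in sorafenib hearts at day 14, and at 19.6, 14.5 and 32.6 against 5.75, 5.85 and 13.6 at day 28. It was the only member whose sorafenib libraries lay on the same side of all water libraries at both days, 1.28% of the members against 5.8% of all genes (3.36% lower and 2.44% higher). The averaged log2 fold change was the lowest of all 78, at -1.26 ± 0.32 with an edgeR adjusted p of 0.0434. The call held in 3 of 12 leave-one-out fits, those without sorafenib day 14 replicate 5, day 14 replicate 6 or day 28 replicate 4, and the adjusted p ranged from 0.0229 to 0.133. Without both libraries of low heart muscle markers the log2 fold change was -1.02 and the adjusted p 0.0757. The call also ended with no filter on low counts (0.113) and with the gene length trend removed (0.0524). Its exons overlap those of LOC120096345.

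Kcnt2 encodes Slick, a potassium channel opened by sodium (chromosome 13, 51664129 to 52059209, plus strand). It stood at 10.1, 11.1 and 9.65 CPM in water hearts and 9.84, 5.57 and 9.14 in sorafenib hearts at day 14, and at 9.76, 7.93 and 5.77 against 3.62, 5.01 and 1.66 at day 28. The groups overlapped at day 14 and not at day 28. The 5.01 CPM of sorafenib day 28 replicate 3 came from 6 counts, so its margin to the lowest water library rests on few counts. The average was -0.88 ± 0.23 with an edgeR adjusted p of 0.0489. That call held in 1 of 12 leave-one-out fits, the fit without water day 28 replicate 4 (0.0494), and the adjusted p reached 0.125. It was also lost with RLE factors (0.0559), a stricter filter (0.0622) and a dispersion that was not robust (0.0506).

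Scn7a encodes the sodium channel Nax, which senses extracellular sodium and does not open with voltage like its relatives (chromosome 3, 51335841 to 51438308, minus strand). It stood at 121, 111 and 89.6 CPM in water hearts and 176, 141 and 224 in sorafenib hearts at day 14, and at 93.8, 87.5 and 95.4 against 114, 95.2 and 137 at day 28. Every sorafenib library was higher at day 14, while at day 28 the lowest sorafenib library lay just under the highest water library. The average was 0.55 ± 0.13 with an edgeR adjusted p of 0.0377. It held in 5 of 12 leave-one-out fits, those without water day 14 replicate 2, sorafenib day 14 replicates 5 or 6, or sorafenib day 28 replicates 3 or 4, with adjusted p of 0.0266 to 0.101.

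Nax is known from glia, so markers of Schwann cells were set beside it. None of 7 passed the averaged test and none was at 0 throughout a group. Their summed level was 22.02 to 29.92 CPM with water and 35.3 to 49.3 with sorafenib at day 14, and 27.2 to 29.1 against 26.7 to 33.4 at day 28. The equally weighted mean log2 difference was 0.35, 0.47 and 0.77 in the sorafenib libraries of day 14, and -0.11, 0.05 and -0.07 at day 28. Higher values at day 14 were not limited to Schwann cell markers. By the same measure 7 smooth muscle markers gave 0.895, 0.48 and 0.45 in the sorafenib libraries of day 14. The part of either list in the Scn7a result was not tested.

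**Figure D2:**
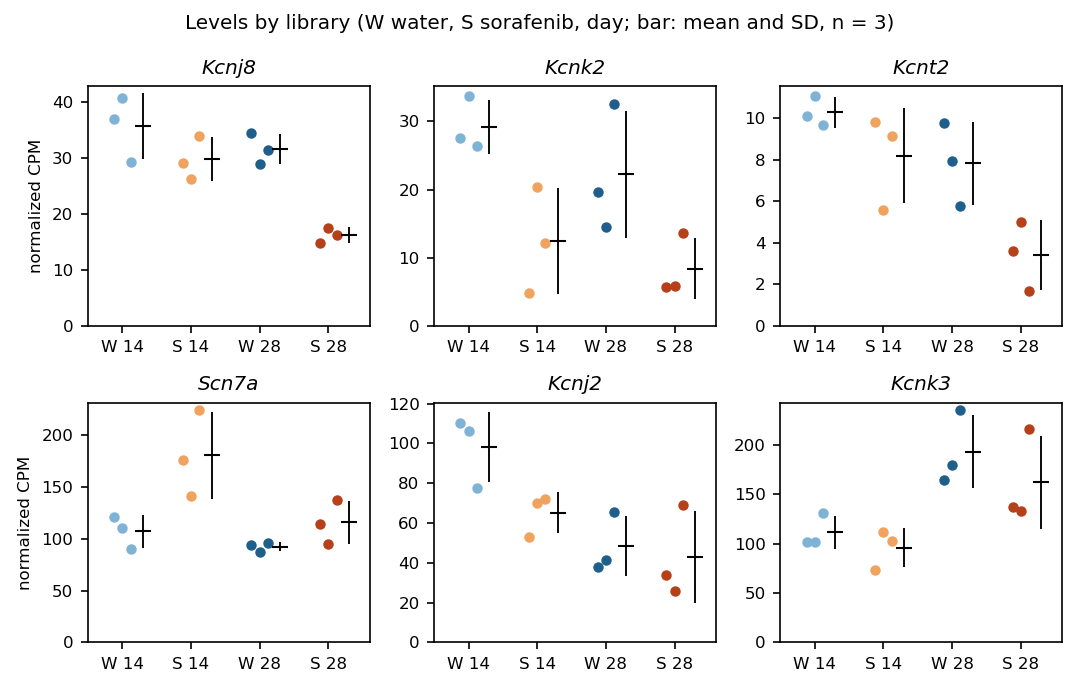
The 6 members that passed a test, by group (W water, S sorafenib, 14 or 28 days). Points are libraries in normalized CPM on axes that start at 0, and the bar is the mean ± SD of 3 libraries. Kcnj8 at day 28 and Kcnk2 at both days show sorafenib libraries wholly under the water libraries, and Kcnk3 and Kcnj2 differ between the water groups of the days.

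The promoters of the 4 called members are shown because these genes passed the averaged test. That of Kcna5 is given for comparison, as the only member promoter holding the glucocorticoid receptor motif. Of the 78 members, 53 matched the RefSeq promoter table of assembly GRCr8 by symbol. Each line holds the 250 bases before the gene's start, 5′ to 3′ on the gene's strand, with a motif match in capitals.
Kcnj8 (GRCr8 chr4:177246549-177246798, minus strand): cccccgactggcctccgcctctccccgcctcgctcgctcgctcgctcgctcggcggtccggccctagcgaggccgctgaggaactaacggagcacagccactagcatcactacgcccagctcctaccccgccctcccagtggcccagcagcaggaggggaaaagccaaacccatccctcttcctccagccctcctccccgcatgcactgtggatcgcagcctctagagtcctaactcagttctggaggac
Kcnk2 (GRCr8 chr13:103438643-103438892, minus strand): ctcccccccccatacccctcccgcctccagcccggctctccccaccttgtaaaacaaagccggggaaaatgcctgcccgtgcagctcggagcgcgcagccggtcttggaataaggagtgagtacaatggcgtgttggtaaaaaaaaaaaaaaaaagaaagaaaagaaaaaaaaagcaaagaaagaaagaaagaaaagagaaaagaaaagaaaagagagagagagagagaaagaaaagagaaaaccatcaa
Kcnt2 (GRCr8 chr13:54215057-54215306, plus strand): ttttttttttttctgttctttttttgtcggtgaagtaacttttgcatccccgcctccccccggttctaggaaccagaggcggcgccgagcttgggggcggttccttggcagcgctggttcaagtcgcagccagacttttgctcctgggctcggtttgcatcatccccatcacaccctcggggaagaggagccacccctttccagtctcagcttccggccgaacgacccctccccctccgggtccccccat
Scn7a (GRCr8 chr3:71846285-71846534, minus strand): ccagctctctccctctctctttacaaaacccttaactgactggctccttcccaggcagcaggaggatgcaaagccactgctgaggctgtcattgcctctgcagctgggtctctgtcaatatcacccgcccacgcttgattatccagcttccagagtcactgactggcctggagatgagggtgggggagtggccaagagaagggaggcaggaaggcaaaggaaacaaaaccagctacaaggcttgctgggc
Kcna5 (GRCr8 chr4:161043810-161044059, minus strand): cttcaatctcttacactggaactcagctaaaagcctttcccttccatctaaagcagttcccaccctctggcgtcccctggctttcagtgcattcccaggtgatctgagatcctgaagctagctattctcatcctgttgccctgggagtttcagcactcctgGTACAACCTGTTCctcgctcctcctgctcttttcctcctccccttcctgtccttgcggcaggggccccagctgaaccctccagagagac
On both strands, the palindromic glucocorticoid receptor motif was found in the Kcna5 promoter, starting at base -89 from the gene's start, and so in 1.89% of member promoters against 0.364% of all 27457. The E-box CACGTG, bound by clock factors, was in Kcne4 only (1.89% against 5.80% of all promoters). TGANTCA, the AP-1 motif, was in Scn3a only (1.89% against 6.36%), and TTATGTAA, a D-box, in none of the 53 (0.816% of all). The 3 matches lay in different genes. Kcnj8, Kcnk2, Kcnt2 and Scn7a held none of the 4 in this window. The median GC content of member promoters was 64.8% against 59.2% for genes of 1 CPM or more, while among those shown it ran from 45.6% in Kcnk2 to 66.8% in Kcnj8.

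Beyond these 4, 5 members had edgeR adjusted p under 0.1 in the average, all of them lower with sorafenib: Kcnj15 (0.0637), Hcn4 (0.0715), Cacna2d1 (0.0725), Kcnn3 (0.0788) and Kcnj3 (0.0892). Cacna2d1, the alpha2delta subunit that raises L-type channel density, stood at 119, 107 and 113 CPM in water hearts and 75.2, 88.4 and 98.8 in sorafenib hearts at day 14, and at 76.4, 96.6 and 123 against 73.0, 55.1 and 80.0 at day 28. The groups overlapped at day 28 only, and the averaged log2 fold change was -0.42 ± 0.13. Hcn4 stood at 14.2, 43.3 and 34.3 CPM against 10.5, 21.9 and 13.6 at day 14, and at 20.9, 30.5 and 57.6 against 18.1, 14.2 and 20.99 at day 28. The water libraries alone spread over more than the difference between the groups, and the average was -0.98 ± 0.30. Of 6 tested pacemaker and conduction markers none passed, and Isl1 was at 0 in every library. Their summed level was 72.3 to 81.6 CPM with water and 65.3 to 78.6 with sorafenib at day 14, and 73.6 to 106 against 92.7 to 107 at day 28.

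Kcnj3, the GIRK1 subunit of the acetylcholine-activated channel of atrial muscle, stood at 66.5, 53.8 and 61.3 CPM in water hearts and 24.96, 51.8 and 43.0 in sorafenib hearts at day 14. At day 28 it was at 37.5, 39.6 and 69.8 against 27.2, 10.9 and 38.1. The groups overlapped at day 28 only, with an average of -0.71 ± 0.23. Kcnj5, its GIRK4 partner, stood at 44.5 ± 8.04 against 59.6 ± 22.2 CPM at day 14 and 49.1 ± 17.1 against 48.6 ± 13.4 at day 28 (edgeR adjusted p in the average 0.512). As a share of both partners per kilobase, Kcnj3 made 65.8, 68.6 and 69.4% with water and 52.8, 54.3 and 46.4% with sorafenib at day 14, and 60.5, 60.2 and 61.1% against 41.7, 33.5 and 52.4% at day 28. The share was lower in every sorafenib library than in every water library of its day, which is given as a description with no test. Of 6 tested atrial muscle markers 2 fell in the average, where 2.41% of all genes fell. Their summed level was 154 to 218 CPM with water and 137 to 312 with sorafenib at day 14, and 196 to 424 against 226 to 384 at day 28. The equally weighted mean log2 difference was 0.75, -0.47 and 0.00 in the sorafenib libraries of day 14, and -0.47, -0.99 and -0.42 at day 28, where Sln was at 0 in all 3. The water libraries of day 28 stood at -0.17, 1.38 and -1.21 by this measure, so the sorafenib values of that day lay within the water spread. The summed levels overlapped as well. The part of these markers in the Kcnj3 values was not tested.

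Other shares within families were described in the same way. Kcnk2 made 22.01 ± 4.17% of the sum of Kcnk2 and Kcnk3 with water and 11.3 ± 4.84% with sorafenib at day 14, and 10.7 ± 2.52% against 5 ± 1.1% at day 28, without overlap at either day. Kcnj2 made 70.3 ± 8.91 and 67.8 ± 5.40% of Kcnj2 and Kcnj12, both ventricular Kir2 pores, at day 14 and 49.8 ± 4.48 and 51.1 ± 5.35% at day 28, and in every library of day 28 the share was under that of every library of day 14. The group means of Cacna1c's share ran from 86.3 to 88.1% and those of Cacnb2's from 92.2 to 93.3%.

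**Figure D3:**
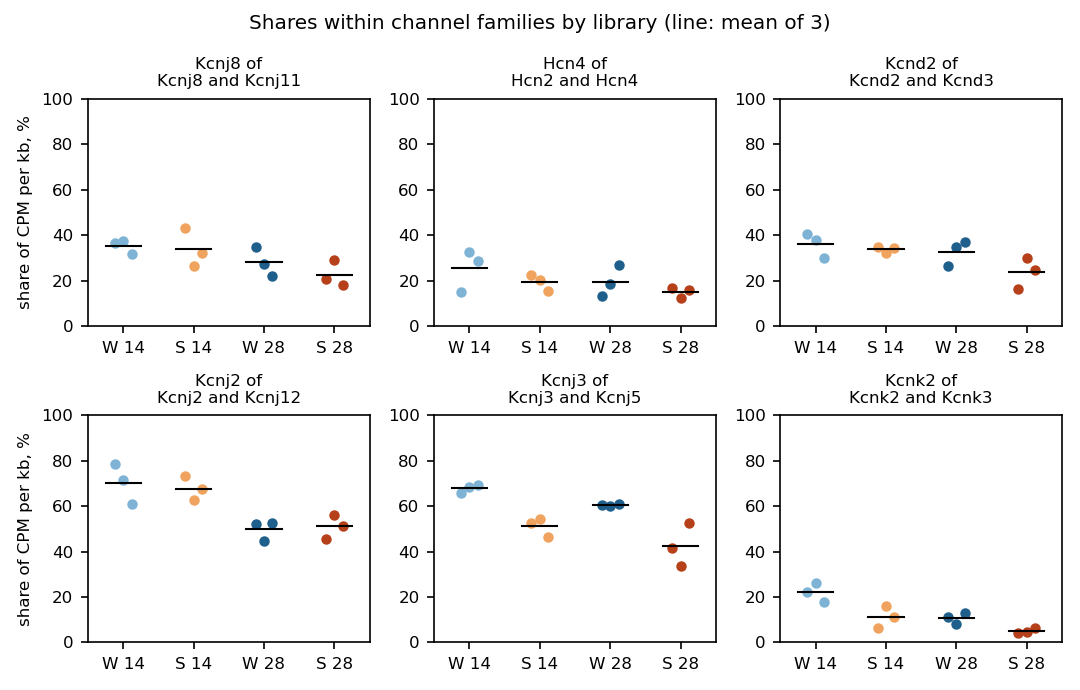
Share of 1 gene in its family's summed CPM per kb, in percent, for 6 pairs or families. Points are libraries (W water, S sorafenib, 14 or 28 days) and lines are means of 3. Kcnj3 of Kcnj3 and Kcnj5 is lower in each sorafenib library than in each water library of its day, and Kcnj2 of Kcnj2 and Kcnj12 is lower at day 28 than at day 14.

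The members' fold changes in the 2 days and in the average share their libraries, and each is given side by side. Of 12 families, 3 had every member below 0 at both days, namely the leak channels (4 of 4), the HCN genes (2 of 2) and the only calcium gamma member, Cacng6. Their medians were -0.47, -0.68 and -0.39 at day 14 and -0.78, -0.70 and -0.33 at day 28. Over all members 38.5% were below 0 at both days, against 35.5% of all genes. Of the 11 inward rectifiers, 7 were below 0 in the average and 1 fell, and of the 10 accessory potassium subunits 5 were on each side and none passed. No family had more than 1 member past the test.

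**Figure D4:**
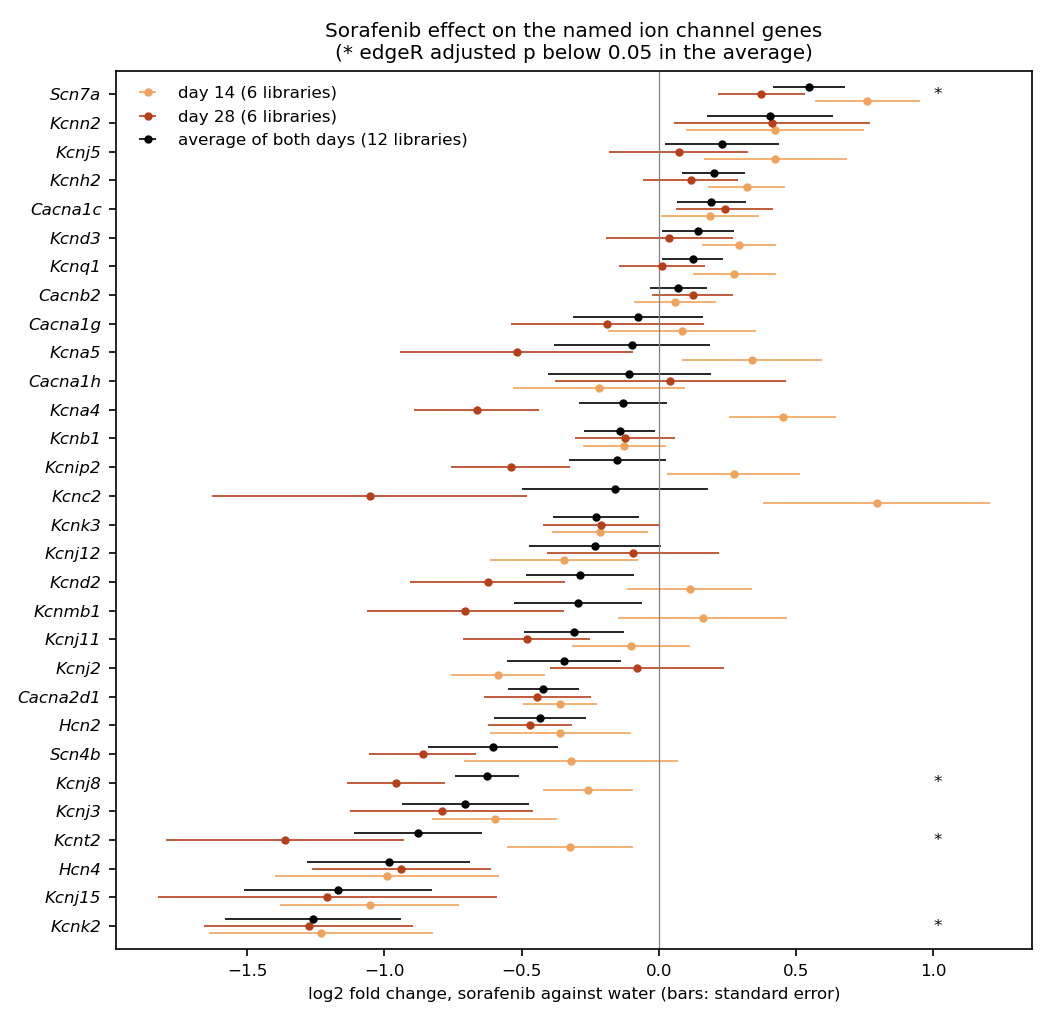
Log2 fold change of sorafenib against water, with standard error, for the named members apart from those at the edge of the level threshold. Orange is day 14, red is day 28 and black the average of both. A star marks an edgeR adjusted p under 0.05 in the average, which Scn7a, Kcnj8, Kcnt2 and Kcnk2 reached. Kcna4, Kcnc2 and Kcnip2 lie on opposite sides of 0 at the 2 days, as do Kcna5, Kcnd2, Kcnmb1, Cacna1g and Cacna1h.

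By library, the 37 members of 10 CPM or more had a median log2 difference from the water mean of the same day of -0.39 in sorafenib day 14 replicate 5, against 0.06 and -0.05 in replicates 6 and 7. At day 28 the medians were -0.29, -0.52 and -0.04 in sorafenib replicates 2, 3 and 4. The 2 libraries with the lowest member medians are those with the lowest heart muscle markers. With both removed, 4 members passed in the average, namely Kcnj8, Kcnt2, Scn7a and Kcnn3, and the median over all 78 was -0.06.

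**Figure D5:**
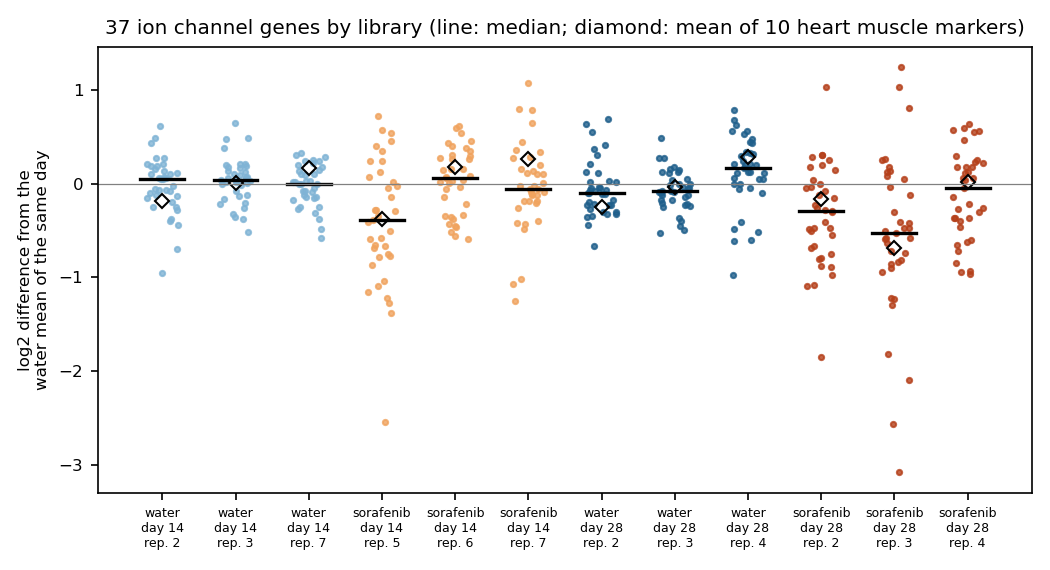
Log2 difference of the 37 members of 10 CPM or more from the water mean of the same day, in each of the 12 libraries. Points are genes, the line is their median and the diamond the mean of 10 heart muscle markers. Sorafenib day 14 replicate 5 and sorafenib day 28 replicate 3 have the lowest medians, at -0.39 and -0.52, and the lowest diamonds.

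Whether sorafenib acted differently at the 2 times was tested as an interaction. No member passed edgeR (smallest adjusted p 0.999), of all 18174 genes 0% did, and DESeq2 called no member and 0.0495% of all genes. With no adjustment 9 members (11.5%) were under the threshold of 0.05 against 4.42% of all genes. The smallest p was that of Kcna4, the Kv1.4 pore of the slowly recovering transient outward current. It stood at 70.2, 68.2 and 47.0 CPM in water hearts and 72.2, 75.0 and 105 in sorafenib hearts at day 14, and at 39.2, 30.5 and 54.5 against 23.9, 30.1 and 24.4 at day 28. All sorafenib libraries were above the water libraries at day 14 and below them at day 28, by narrow margins at both. The difference between the days was -1.15 ± 0.32 (unadjusted p = 0.00291). Kcnip2 had a difference of -0.84 ± 0.35 (unadjusted p = 0.0311), and Kcnc2, a fast delayed rectifier pore of low level, one of -1.89 ± 0.68 (unadjusted p = 0.0149). Of the 20 voltage-gated potassium pores, 15 had a difference below 0, with a median of -0.29 against -0.02 over all genes.

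The water hearts were compared over time, day 28 against day 14, where the time, the rats' age and the separate count tables cannot be told apart. The test called 2 of 78 members (2.56%), 1 in each direction, against 8.51% of 18174 genes (5.8% higher, 2.7% lower), a smaller share than among all genes. With no adjustment 21.8% of members and 24.5% of genes were under the threshold of 0.05. The water groups did not overlap in 17.9% of members, 8 higher and 6 lower, against 33.8% of genes (17.7% higher, 16.1% lower). Kcnk3 stood at 102, 102 and 131 CPM at day 14 and 165, 180 and 235 at day 28, without overlap. It rose by a log2 fold change of 0.79 ± 0.22 (edgeR adjusted p = 0.0386). The call ended without water day 14 replicates 2 (0.123) or 3 (0.134), sorafenib day 14 replicate 7 (0.0557), or water day 28 replicates 3 (0.0824) or 4 (0.144). Kcnj2 stood at 110, 106 and 77.8 CPM at day 14 and 38.1, 41.7 and 65.7 at day 28, and fell by 1.02 ± 0.29 on the log2 scale (edgeR adjusted p = 0.0440). It passed in 6 of 12 leave-one-out fits, those without water day 14 replicate 7, sorafenib day 14 replicate 5, water day 28 replicate 4 or any sorafenib library of day 28, with adjusted p of 0.0124 to 0.154, and not with no filter on low counts (0.0796) or the length trend removed (0.0812). DESeq2 called 6 (7.69%), among them Hcn2, Kcnmb4 and Kcnj6, against 13.9% of all genes. Hcn2 stood at 89.0 ± 3.96 CPM at day 14 and 150 ± 12.04 at day 28, without overlap (edgeR adjusted p = 0.0598).

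Genes that work with the channels were counted from lists. Of 27 tested channel partners, 3 fell in the average (11.1%) and none rose, with a list median of -0.16. Of all genes 2.41% fell, and 4.41% were called in either direction. Among them were Calm2, which encodes calmodulin, the calcium sensor bound to L-type and Kcnq1 channels, and Fgf12, which slows sodium channel inactivation. Calm2 was at 77.9 ± 7.06 CPM with water and 46.7 ± 2.59 with sorafenib at day 14, and at 89.7 ± 10.2 against 53.3 ± 22.4 at day 28 (log2 fold change -0.71 ± 0.15, edgeR adjusted p = 0.0264). No sorafenib library overlapped a water library of its day. Fgf12 stood at 84.7 ± 35.9 against 51.0 ± 19.9 CPM at day 14, with overlap, and 69.5 ± 14.0 against 36.9 ± 2.09 at day 28 (edgeR adjusted p = 0.0390).

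Of 21 tested transcription regulators of cardiac excitability, 2 fell in the average (9.52%), where 2.41% of all genes fell. The list median was -0.16. Mef2a, a factor of the muscle program, stood at 248 ± 27.0 against 157 ± 17.6 CPM at day 14 and 228 ± 33.6 against 149 ± 37.5 at day 28 (edgeR adjusted p = 0.0251). Hey2, a repressor active in ventricular muscle, stood at 11.99 ± 0.911 against 6.18 ± 1.04 and at 9.52 ± 2.56 against 5.52 ± 2.82 CPM (edgeR adjusted p = 0.0462). Of 35 tested channels of other families (Trp, chloride, mechanosensitive and intracellular), none passed in the average, and the list median was -0.08. Over time in water hearts, 3 regulators rose, Tbx3, Tbx5 and Gata4 (14.3%, where 5.8% of all genes rose). Of the other channels 5.71% were called in either direction against 8.51% of all genes, among them Clic4, which rose.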

How the data were processed

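Ribosomal RNA was removed from total heart RNA and strand-marking libraries were made, per the labels' protocols. The authors deposited counts of read pairs per gene. These came from featureCounts 2.0.1 on mRatBN7.2 in paired mode, without strand setting or multi-mapping reads, per the file headers. STAR is named in the submitters' processing notes. The exon length column is also the authors', per the file headers, and served for values per kilobase. The day 14 table has 2 further count columns without a matching sample, which were left out.

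Counts were tested with edgeR 4.0.16 (R 4.3.3; filterByExpr, TMM, robust quasi-likelihood test, Benjamini-Hochberg over all genes tested, threshold 0.05). Each day's sorafenib and water libraries were fitted alone, and a fit of all 4 groups gave the average, the difference between days and the water groups over time. SE was obtained from the log2 fold change and the F statistic. The code was checked on simulated counts.

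Members, lists, markers and the naming rule were chosen with earlier results of these data known. The rule names a fixed list of cardiac channel genes, members past a test, the 4 of smallest p per comparison, the 5 of highest CPM per kb and those at the level threshold. Kcnn3, Kcnmb4, Kcnj6, Kcng2, Kcne4, Cacng6 and Scn3a fall outside it and were named after their values were seen. The alternatives tried were DESeq2 1.42.0, RLE scaling, dropping the filter or requiring 1 CPM in 3 libraries, a dispersion that is not robust, an offset for gene length (lowess span 0.3), fitting all groups, blocking on the title number, and leave-one-out fits. Results of some genes are not reported here.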

Additional observations from a re-analysis of the deposited data

Results flagged for a closer look

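Kcna4, the Kv1.4 pore, had sorafenib effects of opposite direction at the days: all 3 sorafenib libraries were higher than all 3 water libraries at day 14 and all 3 lower at day 28. The difference of the effects was -1.15 ± 0.32 (log2, SE). Over all genes it did not pass edgeR (adjusted p = 0.999), and the adjusted p ran from 0.689 to 1 when each library was left out in turn. When the title numbers were blocked, the difference was -1.88 (edgeR adjusted p = 0.330).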

How the results depend on the processing

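The 20 combinations of member and comparison named by a test or a small p gave 348 values under alternatives. Of the 120 values of the 6 called combinations, 70 kept the call and 50 lost it. Of the 228 values of the 14 combinations not called, 21 gained a call. None reversed direction. Counts of called members depended more on the setting. At day 14 DESeq2 called 2 members against 0. At day 28 DESeq2 called 2, no filter 1 and all groups in the fit 1, against 0. In the average DESeq2 called 8 against 4, and leaving out each library gave 0 to 7, with 0 when water day 14 replicate 3 or sorafenib day 28 replicate 2 was absent, 1 without water day 14 replicate 7, sorafenib day 14 replicate 7 or water day 28 replicate 3, 2 without water day 28 replicate 4, but 7 once sorafenib day 28 replicate 4 was left out. In the water groups DESeq2 called 6 against 2, removal of the length trend 1, and leave-one-out fits 0 to 4, with 0 without water day 14 replicates 2 or 3, sorafenib day 14 replicate 7 or water day 28 replicate 3, 1 when water day 28 replicate 2 was absent, and 4 when sorafenib day 14 replicate 5 or sorafenib day 28 replicate 4 was. Called genes moved alongside in the average, from 801 of all genes to 1836 with DESeq2, to 60 and 35 where no member was called, and to 1562 where 7 were. Leaving out single libraries gave 0 members at either day alone and for the difference. The removal of both sorafenib libraries with low heart muscle markers was chosen after seeing the data. It gave 4 in the average and 5 in the water groups.

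The title number as a replicate block gave 2 called members at day 28 against 0, 2 in the average against 4 (38 of all genes against 801), 0 for the difference and 5 in the water groups against 2. In the average the calls lost were Kcnj8 (log2 fold change -0.39, edgeR adjusted p = 0.318) and Kcnt2 (-0.74, 0.260). At day 28 same-numbered libraries deviated together with a correlation of 0.115, 0.002 and 0.163, and water replicate 3 correlated most with sorafenib replicate 2 (0.05), so the numbers were not taken to pair the samples. Only number 7 is shared at day 14, where no paired fit was made.

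Depth limits members near 1 CPM most, above all in sorafenib day 28 replicate 3, where 1 count equals 0.965 CPM. With 3 libraries a group, a p that misses the threshold does not show that a level was the same.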
